A study of Arabidopsis thaliana with 18 samples.

Results

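LHCB1 and LHCB2 are the gene families of the major antenna of photosystem II, and their 8 members, LHCB1.1 to LHCB1.5 and LHCB2.1 to LHCB2.3, were followed here through the first hours of deetiolation, the change from growth in darkness to growth in light. They were chosen by gene identifier and are 8 of the 34212 genes in the tables. RNA was taken from whole seedlings of Arabidopsis thaliana, ecotype Col-0, with no mutation or transgene in any group. The seedlings were 5 days old, grown in constant darkness on MS medium without sucrose, and were either harvested in the dark or moved to white light (WL) for 15, 30, 60, 150 or 360 min. For dark-grown seedlings, the study's methods give 6 h of WL to induce germination before the plates were covered. Each of the 6 groups had 3 biological replicates, 18 libraries in all. The sample labels and the study's methods name different WL intensities and different library preparations. Dark seedlings were taken only at the start, so hours in WL and hours elapsed cannot be told apart.

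The proteins encoded by LHCB1 and LHCB2 bind chlorophyll a and chlorophyll b and form, with LHCB3, the trimeric light-harvesting complex II (LHCII), which collects light and passes the energy to photosystem II. The genes lie in the nucleus, and the proteins are made in the cytosol, imported into the plastid and inserted into the thylakoid membrane. LHCB genes are a classical readout of phytochrome action, because seedlings grown in darkness make little of their messenger RNA and light raises it. The kinase STN7 phosphorylates both LHCB1 and LHCB2, and the phosphorylation of LHCB2 is the one on which movement of antenna between the photosystems depends.

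The 8 genes lie in 4 places on the TAIR10.1 assembly. LHCB1.2 (AT1G29910, chr1:10472280-10473502, minus strand), LHCB1.1 (AT1G29920, chr1:10474656-10475969, minus strand) and LHCB1.3 (AT1G29930, chr1:10477885-10479114, plus strand) lie side by side, with 1153 bases between LHCB1.2 and LHCB1.1 and 1915 bases between the starts of the divergent pair LHCB1.1 and LHCB1.3. LHCB1.5 (AT2G34420, chr2:14522524-14523568, minus strand) and LHCB1.4 (AT2G34430, chr2:14524607-14525918, plus strand) are also a divergent pair, 1038 bases apart. LHCB2.2 (AT2G05070, chr2:1799234-1800472, minus strand) and LHCB2.1 (AT2G05100, chr2:1822990-1824480, minus strand) face the same way with 5 genes between them, and LHCB2.3 (AT3G27690, chr3:10255906-10257489, plus strand) stands alone. The LHCB1 genes have 1 exon and the LHCB2 genes 2, and the coding sequences run from 798 to 804 bases.

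How alike the copies are decides how far their reads can be told apart, so a matching stretch of coding sequence is shown for the copies on which the results turn. Capitals mark bases that differ from LHCB1.3 in the LHCB1 lines and from LHCB2.1 in the LHCB2 lines. The sequences come from the RefSeq annotation of TAIR10.1 and are written 5′ to 3′ on the coding strand, spliced across the intron for LHCB2. LHCB1.2 (chr1:10473067-10473156, minus strand) has the same letters as LHCB1.1 in this stretch.
LHCB1.3, chr1:10478161-10478250, plus strand: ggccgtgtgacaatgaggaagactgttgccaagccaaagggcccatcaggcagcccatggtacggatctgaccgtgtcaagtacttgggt
LHCB1.1, chr1:10475713-10475802, minus strand: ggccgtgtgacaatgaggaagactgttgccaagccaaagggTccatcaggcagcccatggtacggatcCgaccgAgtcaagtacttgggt
LHCB1.5, chr2:14523340-14523429, minus strand: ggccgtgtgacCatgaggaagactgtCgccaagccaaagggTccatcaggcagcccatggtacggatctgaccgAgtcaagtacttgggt
LHCB2.1, chr2:1824067-1824241, minus strand: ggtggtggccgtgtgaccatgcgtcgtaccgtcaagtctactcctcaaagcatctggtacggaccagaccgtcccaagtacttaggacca
LHCB2.2, chr2:1800054-1800239, minus strand: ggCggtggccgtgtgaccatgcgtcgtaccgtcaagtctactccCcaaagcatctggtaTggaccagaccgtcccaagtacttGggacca
LHCB2.3, chr3:10256095-10256303, plus strand: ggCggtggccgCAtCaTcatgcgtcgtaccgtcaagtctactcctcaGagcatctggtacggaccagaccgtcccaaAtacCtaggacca
Over the whole coding sequence, LHCB1.1 and LHCB1.3 shared 96.1% of aligned bases, LHCB1.1 and LHCB1.2 95.6%, and LHCB2.1 and LHCB2.2 96.6%. LHCB2.3 stood further off, at 85.5% identity with LHCB2.1, and no LHCB1 copy shared more than 73.2% with an LHCB2 copy.

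Reads were assigned by words of 31 bases to a transcriptome whose sequences were not used here, so the words were counted on the RefSeq transcripts of TAIR10.1 instead. There no word was shared between an LHCB1 and an LHCB2 gene. The members were separable from all other annotated genes only in part: 68.8% of the words of LHCB1.1, 74.9% of LHCB1.2, 61.4% of LHCB1.3, 76.5% of LHCB1.4, 68.8% of LHCB2.1, 60.6% of LHCB2.2 and 60.1% of LHCB2.3 occurred in no other annotated gene. LHCB1.5 had no such word, because the annotation places a long noncoding RNA, AT2G08665, antisense over its whole length. That noncoding RNA is not a target in the transcript tables used here. Of its 1435 words, LHCB2.3 shared 8 with other members and 565 with genes outside the 8. For LHCB1.3 these counts were 385 and 114, and for LHCB1.4 301 and 264. LHCB1.3, LHCB1.5 and LHCB2.3 also overlap a coding neighbour. The options that the study lists for kallisto include none for strand, so values of these 3 genes are uncertain to the extent of the overlap. The overlapped neighbour AT3G27700 had 5.91 to 132 normalized counts against 12.5 to 1568 for LHCB2.3, and in 1 library LHCB2.3 had 0.368 times its neighbour's count. LHCB1.3 was never below 45.8 times, and LHCB1.5 never below 2.50 times, the count of the coding neighbour.

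Counts are given below as normalized counts, the gene counts scaled to a common library size by edgeR's TMM method. Totals per library ran from 3577432 to 16156302 counts, of which plastid 23S ribosomal RNA took 3.37% to 83.9%. Together the 8 genes took 0.0877% to 0.31% of the remaining counts in the dark libraries and 1.23% to 1.57% after 360 min of WL. The third 60 min library stood apart, with the lowest total and the lowest 23S share. Its LHCB2 share of the counts without 23S (0.111%) was as high as its LHCB1 share (0.109%), whereas LHCB1 was above LHCB2 in the other 17 libraries, and values without it are given beside the 60 min results, except those of pooled copies. The material was checked against fixed markers of epidermis, guard cells, root, xylem, phloem and seed stores: in every group each list was detected, and none of the markers tested passed the threshold at 360 min. In the seed store list, SESA3 was at 0 in the 3 libraries of 15 min. The summed root list (5 genes) had 1132 to 1164 normalized counts in dark and 1161 to 1249 at 360 min, and the epidermis list (3 genes) 1709 to 3366 and 1944 to 3420.5. The xylem list (2 genes) had 136 to 159 in dark and 23.8 to 134 at 360 min, every library below dark. How many of all genes were below dark in this way at 360 min was not counted. The guard cell list (2 genes) had 57.1 to 111 in dark and 63.4 to 229 at 360 min, and the phloem list (2 genes) 259 to 363 and 347 to 434. The summed seed store list (3 genes) had 5.86 to 1894 in dark and 7.14 to 15.8 at 360 min. The part of these lists in the results was not tested. In such whole-seedling RNA, fewer cells of a type and less RNA per cell cannot be told apart.

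LHCB transcript levels were high after 150 and 360 min of WL. At 60 min the LHCB2 sum passed the test and the LHCB1 sum did not, and the ratio of the sums is tested further on. The LHCB2 sum had 787 ± 455 normalized counts in dark (mean ± SD, n = 3) and 4134 ± 1139 after 60 min of WL, which is a log2 fold change of 2.39 ± 0.41 (SE; edgeR's quasi-likelihood test, adjusted p = 0.00151). The LHCB1 sum had 9261 ± 4544 in dark and 15861 ± 9716 after 60 min of WL, and its log2 fold change of 0.78 ± 0.54 did not pass the threshold of 0.01 (adjusted p = 0.675). By 150 min both had risen, LHCB1 by 2.90 ± 0.57 (adjusted p = 0.00249) and LHCB2 by 3.94 ± 0.44 (adjusted p = 3.4e-06). At 360 min the log2 fold changes were 3.44 ± 0.59 for LHCB1 and 3.45 ± 0.43 for LHCB2, about 10.8-fold and 11-fold (adjusted p = 4.0e-04 and 1.1e-05). Without the third 60 min library, the 60 min changes were 1.19 for LHCB1 (adjusted p = 0.304) and 2.15 for LHCB2 (adjusted p = 0.00442). The 60 min call of LHCB2 was lost without dark replicate 1 (2.16) or dark replicate 3 (2.17). The 150 min call of LHCB1 was lost without dark replicate 1 (2.86), dark replicate 3 (2.60) or the third 150 min library (2.62).

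Counted gene by gene, 0 of the 8 passed the threshold after 15 or 30 min of WL, 3 after 60, 5 after 150 and 6 after 360 min, all of them higher. Over all 16747 genes tested, the share called higher was 0%, 0.0836%, 0.8%, 2.2% and 3.47% in order of time. The share called lower was 0% at the first 2 times, then 0.0478%, 0.561% and 0.812%, and 0 of the 8 genes were lower. At an unadjusted p below 0.05, 1 of the 8 genes differed at 15 min (LHCB2.3, lower). At 30 min 2 differed, in opposite directions (LHCB2.1 higher and LHCB2.3 lower). At that p 48 of the 16747 genes were higher at 15 min and 254 at 30 min, and lower genes were not counted. DESeq2 and limma-voom also called none of the 8 at either time. The median log2 fold change of the 8 was -0.69, -0.34, 0.90, 3.48 and 3.36 in order of time, where the median over all genes tested stayed between -0.03 and 0.02. In the test of the 5 light groups together all 8 genes passed, against 5.02% of all genes. The plot of normalized counts by library shows the 8 genes side by side, and the plot of log2 fold changes shows which of them passed.

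**Figure D1:**
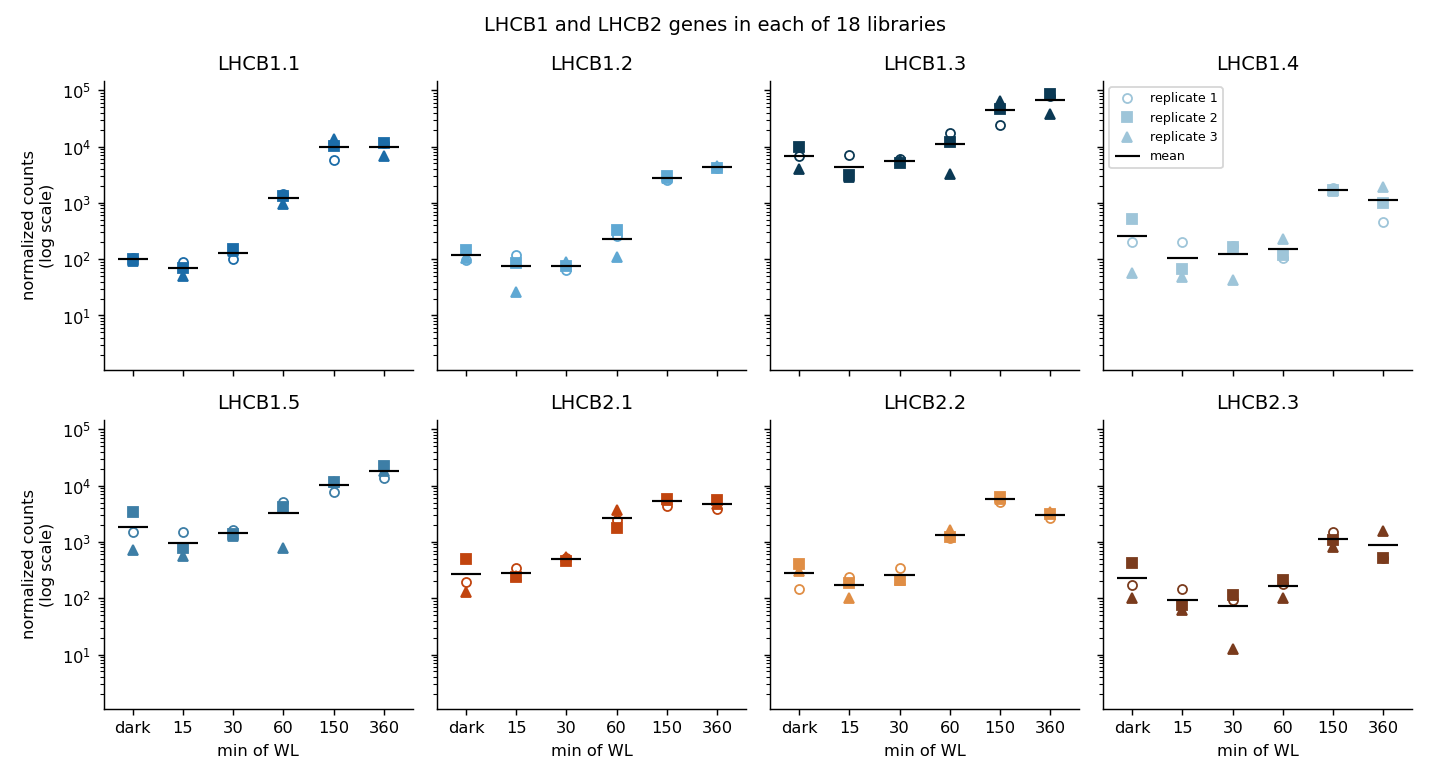
Normalized counts (log scale) of each LHCB1 and LHCB2 gene in the 3 libraries of each group against min of WL; symbols are replicates and the bar is the mean. LHCB1.1 starts at a mean of 99.7 counts and LHCB1.3 at 6919.8, and at 150 min all 3 libraries of every gene lie above its dark libraries.

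**Figure D2:**
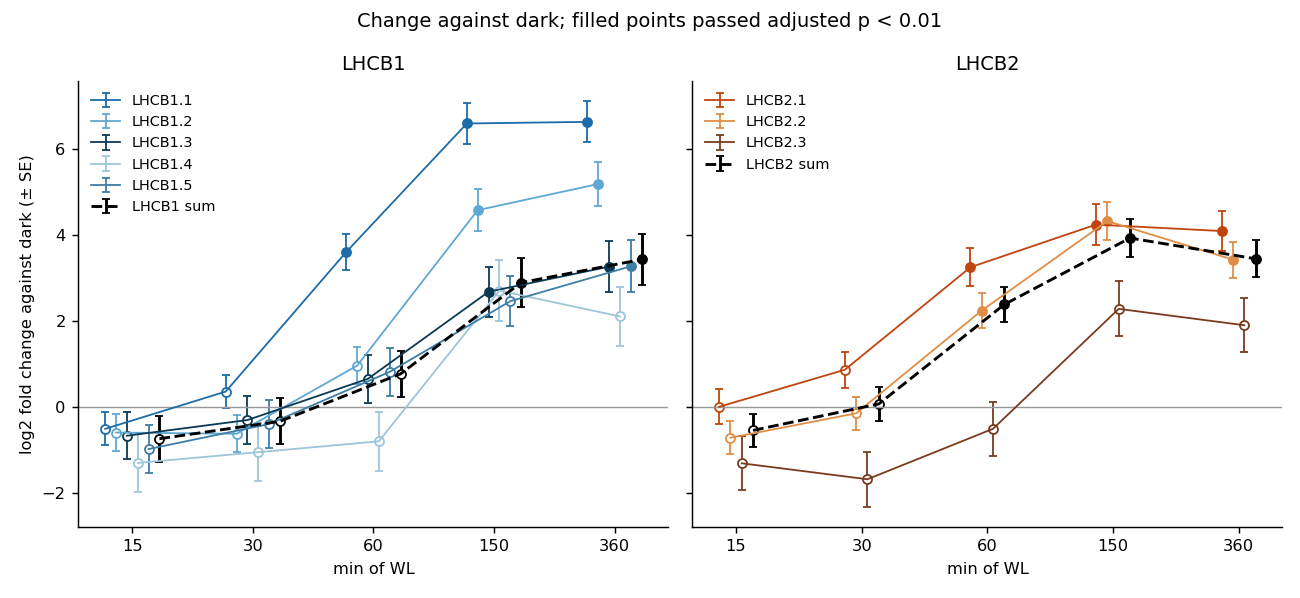
Log2 fold change against dark (± SE, edgeR) at each time for the LHCB1 genes and their sum (left) and the LHCB2 genes and their sum (right); filled points passed an adjusted p of 0.01. At 60 min the filled points are LHCB1.1, LHCB2.1, LHCB2.2 and the LHCB2 sum.

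LHCB1.1 had the largest response of the 8 genes at 60, 150 and 360 min. Its normalized counts were 105, 99.9 and 94.3 in dark, 90.1, 70.3 and 49.8 at 15 min and 99.0, 149 and 137 at 30 min. They were 1423, 1310.2 and 937 at 60 min, 5679.9, 10042 and 13385 at 150 min and 11564, 11586 and 6730.3 at 360 min. From 60 min on, every light library was above every dark library, and at 15 min all 3 were below the dark libraries. Among all genes tested, 3.91% had their 3 libraries of 15 min above the dark libraries, 5.95% those of 30 min, 6.89% those of 60 min, 12.5% those of 150 min and 10.5% those of 360 min, and 3.83% had those of 15 min below the dark libraries. The log2 fold change of LHCB1.1 was 3.61 ± 0.42 at 60 min (adjusted p = 1.6e-05), 6.60 ± 0.48 at 150 min (adjusted p = 1.1e-08) and 6.64 ± 0.48 at 360 min (adjusted p = 1.0e-08), the last about 99.7-fold. Without the third 60 min library the first of these was 3.77 (adjusted p = 1.6e-05). Neither DESeq2 nor limma-voom, nor leaving out any library, ended these 3 calls.

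LHCB1.2, the neighbour of LHCB1.1 and 95.6% identical to it in coding sequence, first passed the test at 150 min. It had 98.2, 147 and 105 normalized counts in dark, 64.4, 74.2 and 90.1 at 30 min and 259, 323 and 107 at 60 min. All 3 libraries of 30 min were below dark, as for 5.38% of all genes. The dark and 60 min libraries overlapped only through the third 60 min library, and the log2 fold change of 0.97 ± 0.44 did not pass (adjusted p = 0.405; 1.32 and 0.146 without that library). At 150 min it had 2585, 3037 and 2810.2 and at 360 min 4136, 4156 and 4557, in all libraries above dark and with little spread. These were rises of 4.59 ± 0.49 (adjusted p = 2.0e-06) and 5.19 ± 0.51 on the log2 scale (adjusted p = 4.9e-07).

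LHCB1.3 was the most abundant of the 8 genes per length in every library, and thus set most of the LHCB1 sum. Its normalized counts were 6919.7, 9855 and 3984 in dark, 7133, 3104 and 2874 at 15 min and 6046, 5175 and 5670.1 at 30 min. They were 17624, 11981 and 3253 at 60 min, 23899, 46337 and 63371 at 150 min and 77467, 85107 and 37813 at 360 min. Light and dark libraries overlapped up to 60 min, at 60 min only through the third library, and were apart at 150 and 360 min. At 60 min the log2 fold change was 0.66 ± 0.55 (adjusted p = 0.756), and 1.1 without that library (adjusted p = 0.361). Against dark the log2 fold change was 2.69 ± 0.59 at 150 min (adjusted p = 0.00596) and 3.27 ± 0.60 at 360 min (adjusted p = 8.5e-04). The 150 min call was lost without any 1 of the 3 dark libraries (2.69, 3.03 and 2.41 without replicates 1, 2 and 3) or without 150 min replicate 2 (2.66) or replicate 3 (2.34), and that of 360 min without dark replicate 3 (3.0, adjusted p = 0.0101).

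LHCB1.5 was the second in abundance per length in dark and at 360 min. It had 1482, 3398 and 720.3 normalized counts in dark, 5007, 4136 and 777 after 60 min of WL, 7744, 11509 and 11734 after 150 min and 13854, 22297 and 18251 after 360 min. All libraries of 150 and 360 min were above those of dark, while the third 60 min library fell among the dark ones. The 60 min change of 0.82 ± 0.56 (adjusted p = 0.669) was 1.29 without it (adjusted p = 0.256). The log2 fold change of 2.47 ± 0.59 at 150 min missed the threshold (adjusted p = 0.0122) and passed it without dark replicate 2 (3.23) or without the third 60 min library (2.47). At 360 min it was 3.28 ± 0.61 (adjusted p = 9.5e-04), a call that was lost without dark replicate 1 (3.14, adjusted p = 0.0112). Its divergent partner LHCB1.4 was scarce and variable, with 203, 515 and 56.2 in dark, 1834, 1675 and 1606 at 150 min and 464, 977 and 1919 at 360 min. The 150 min libraries lay above all dark libraries, and the 360 min libraries overlapped them. Neither 2.71 ± 0.71 (adjusted p = 0.0267) nor 2.11 ± 0.69 (adjusted p = 0.0679) passed, and the first passed without dark replicate 2 (3.70, adjusted p = 0.0073).

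The LHCB2 genes encode the antenna polypeptide whose phosphorylation accompanies state transitions, the movement of antenna between photosystems. LHCB2.1 had 196, 492 and 131 normalized counts in dark, 524, 453 and 529 at 30 min and 2418, 1773 and 3676 at 60 min. It then had 4390.1, 5747 and 5522 at 150 min and 3803, 5645 and 4654 at 360 min. At 30 min the lowest light library was still below the highest dark library, and from 60 min on the groups were apart. Against dark the log2 fold change was 0.87 ± 0.41 at 30 min (adjusted p = 1), 3.26 ± 0.45 at 60 min (adjusted p = 1.4e-04), 4.25 ± 0.47 at 150 min (adjusted p = 2.6e-06) and 4.1 ± 0.46 at 360 min (adjusted p = 3.0e-06). Without the third 60 min library the 60 min change was 2.93 (adjusted p = 4.6e-04).

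LHCB2.2 had 147, 399 and 305 normalized counts in dark, 1191, 1219.6 and 1629.9 after 60 min of WL, 5079, 6379 and 5656 after 150 min and 2642, 3105 and 3432 after 360 min. All libraries from 60 min on were above dark. The rises were 2.25 ± 0.40 (adjusted p = 0.00233), 4.33 ± 0.44 (adjusted p = 8.4e-07) and 3.43 ± 0.42 (adjusted p = 9.3e-06) on the log2 scale. The 60 min call was lost without dark replicate 1 (1.93) or dark replicate 3 (2.3), and kept without the third 60 min library (2.09, adjusted p = 0.00691). Between 150 and 360 min the difference of -0.90 ± 0.39 did not pass (adjusted p = 0.826).

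LHCB2.3, the divergent member of the family, did not pass at any single time. Its counts were 171, 421 and 99.8 in dark, 91.1, 113 and 12.5 after 30 min of WL, 1505, 1071 and 819 after 150 min and 507, 522 and 1568 after 360 min. The libraries of 150 and 360 min were above all dark libraries, and those of 15, 30 and 60 min overlapped them. Against dark the log2 fold change was -1.68 ± 0.63 at 30 min (adjusted p = 1, unadjusted 0.015), 2.29 ± 0.64 at 150 min (adjusted p = 0.0404) and 1.91 ± 0.63 at 360 min (adjusted p = 0.0693).

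The copies most alike in coding sequence were also pooled before the fit. LHCB1.1, LHCB1.2 and LHCB1.3 together rose by 3.0 ± 0.57 at 150 min (adjusted p = 0.00174) and 3.51 ± 0.58 at 360 min (adjusted p = 3.1e-04). LHCB1.4 and LHCB1.5, which shared 91.4% of aligned coding bases, together rose by 2.50 ± 0.58 (adjusted p = 0.00969) and 3.18 ± 0.59 (adjusted p = 0.00102). Their sum so passed at 150 min, where neither gene alone did. LHCB2.1 and LHCB2.2 together rose already at 60 min, by 2.83 ± 0.41 with all 3 libraries (adjusted p = 2.3e-04). The other pools did not pass there: LHCB1.1 to LHCB1.3 differed by 0.80 ± 0.53 (adjusted p = 0.663). LHCB1.4 with LHCB1.5 differed by 0.70 ± 0.55 (adjusted p = 0.732).

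Between neighbouring time points, members passed the test from 30 to 60 min and from 60 to 150 min only. From 30 to 60 min LHCB1.1 rose by 3.25 ± 0.41 (adjusted p = 4.8e-04) and LHCB2.2 by 2.39 ± 0.40 (adjusted p = 0.00916) on the log2 scale, 2 of the 8 genes where 0.0657% of all genes were called higher. LHCB2.1 differed by 2.39 ± 0.43 and just missed the threshold (adjusted p = 0.0119). From 60 to 150 min LHCB1.1 rose by a further 2.99 ± 0.40 (adjusted p = 5.9e-04) and LHCB1.2 by 3.62 ± 0.47 (adjusted p = 5.9e-04), 2 of the 8 against 0.119% of all genes called higher and 0.0299% called lower. For both genes of each step all 3 later libraries were above the 3 earlier ones, as for 7.02% of all genes from 30 to 60 min and 7.26% from 60 to 150 min. No member passed from 15 to 30 min or from 150 to 360 min, where 0% of all genes were called in either direction. At an unadjusted p below 0.05, 2 of the 8 were higher from 15 to 30 min (LHCB1.1 and LHCB2.1), as were 175 of all 16747 genes. From 150 to 360 min 1 of the 8 was lower (LHCB2.2), a direction not counted over all genes. The first step of LHCB1.1 was lost without 30 min replicate 1 (3.09) or replicate 3 (3.31). The first step of LHCB2.2 was lost on leaving out any 1 of 13 libraries, with log2 values of 2.23 to 2.68 and adjusted p-values of 0.0105 to 0.1, whereas the 2 steps from 60 to 150 min passed without any single library.

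The make-up of the antenna transcripts was then compared within libraries, per length, as the share of the summed TPM (transcript abundance per length, scaled to the library) of the 8 genes. In dark, LHCB1.3 made up 68.3% ± 5.63 (SD, n = 3) of the sum and LHCB1.5 19.4% ± 5.13. The other 6 genes followed with mean shares of 3.31% (LHCB2.2), 2.74% (LHCB2.3), 2.17% (LHCB2.1), 1.90% (LHCB1.4), 1.24% (LHCB1.2) and 1.01% (LHCB1.1). LHCB1.3 and LHCB1.5 did not overlap each other or the rest in dark, while each of the 6 lower genes overlapped the next in order. After 360 min LHCB1.3 had 58.9% ± 10.9, LHCB1.5 19.9% ± 6.17 and LHCB1.1 8.0% ± 0.837, and these 3 ranges were apart. LHCB1.1 had thus moved from the last place to the third, and the genes below it, from LHCB1.2 at 3.97% ± 1.31 to LHCB1.4 at 1.04% ± 0.942, again overlapped their neighbours. The bars of shares by library show this shift and the different make-up of the third 60 min library.

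**Figure D3:**
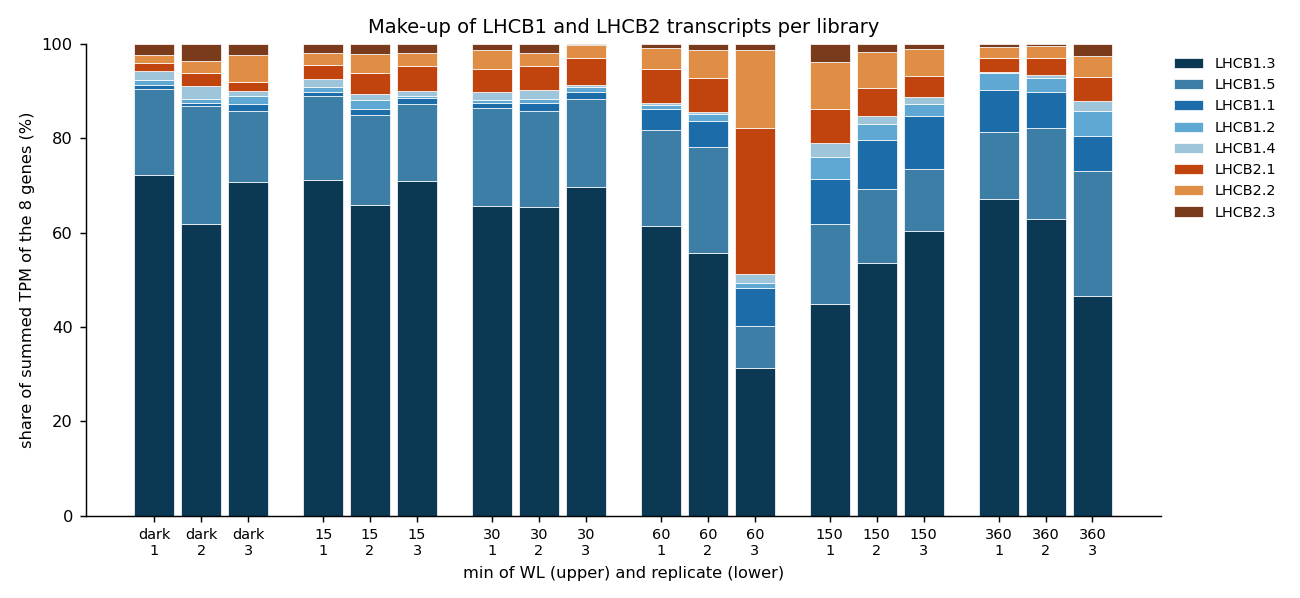
Share (%) of each gene in the summed TPM of the 8 genes, one bar per library, ordered by min of WL and replicate; blue shades are LHCB1 and orange to brown shades LHCB2. LHCB2 makes up 5.76% to 10.1% of the dark bars and 48.8% of the third 60 min bar.

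LHCB2 as a family took 5.76%, 8.83% and 10.1% of the sum in dark, 10.3%, 9.71% and 8.60% at 30 min and 12.5%, 14.4% and 48.8% at 60 min. It took 20.9%, 15.2% and 11.3% at 150 min and 5.87%, 6.56% and 12% at 360 min. The libraries of 60 and 150 min were all above the dark libraries, and those of 15, 30 and 360 min overlapped them. The mean log2 ratio of LHCB2 to LHCB1 differed from dark by 1.71 at 60 min and by 1.06 at 150 min, each with p = 0.1 in a two-sided exact permutation test, the smallest that 3 against 3 libraries allow (0.25 after Benjamini-Hochberg adjustment over 5 time points). Without the third 60 min library the difference at 60 min was 0.84. At 15, 30 and 360 min it was 0.21, 0.27 and -0.05 (exact p = 0.6, 0.6 and 1).

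Ratios between copies showed where members of a family diverged. LHCB1.1 was at 1.35%, 0.903% and 2.11% of the LHCB1.3 level in the dark libraries and at 21.2%, 19.3% and 18.9% at 150 min. The groups did not overlap, with a difference of 3.85 in the log2 ratio. At 60 and 360 min the differences were 3.15 and 3.32, again without overlap, and the first was 2.61 without the third 60 min library. The log2 ratio of LHCB1.2 to LHCB1.3 differed from dark by 1.94 at both 150 and 360 min, and its groups were apart at these times. LHCB1.5 was at 25.1%, 40.5% and 21.2% of the LHCB1.3 level in dark and 21.0%, 30.7% and 56.6% at 360 min, and the groups overlapped.

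Within LHCB2, the ratio of LHCB2.3 to LHCB2.1 was lower in every light library than in dark. LHCB2.3 was at 132%, 130.3% and 116% of the LHCB2.1 level in dark, at 62.9%, 48.9% and 37.6% after 15 min of WL, at 26.5%, 38.0% and 3.58% after 30 min and at 11.4%, 18.2% and 4.11% after 60 min. The differences from dark in the log2 ratio were -1.37, -3.04, -3.73, -1.97 and -2.37 in order of time. The 30 min difference was -1.99 without 30 min replicate 3, and that of 60 min -3.12 without 60 min replicate 3. The 5 comparisons share the same dark libraries. LHCB2.1 was at 35.6% to 208% of the LHCB2.2 level, with 111%, 102% and 35.6% in the dark libraries and 119%, 151% and 112% at 360 min. Their log2 ratio was higher than in dark, without overlap, at 30, 60 and 360 min, by 1.17, 1.08 (0.95 without the third 60 min library) and 0.77, and overlapped dark at 15 and 150 min. The third dark library lowered the dark mean of this ratio, and the differences without that library were not computed. Of the 30 comparisons of copy ratios with dark, those without overlap all had an exact two-sided p of 0.1, the smallest possible, and an adjusted p of 0.231. The plot of log2 ratios gives every library.

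**Figure D4:**
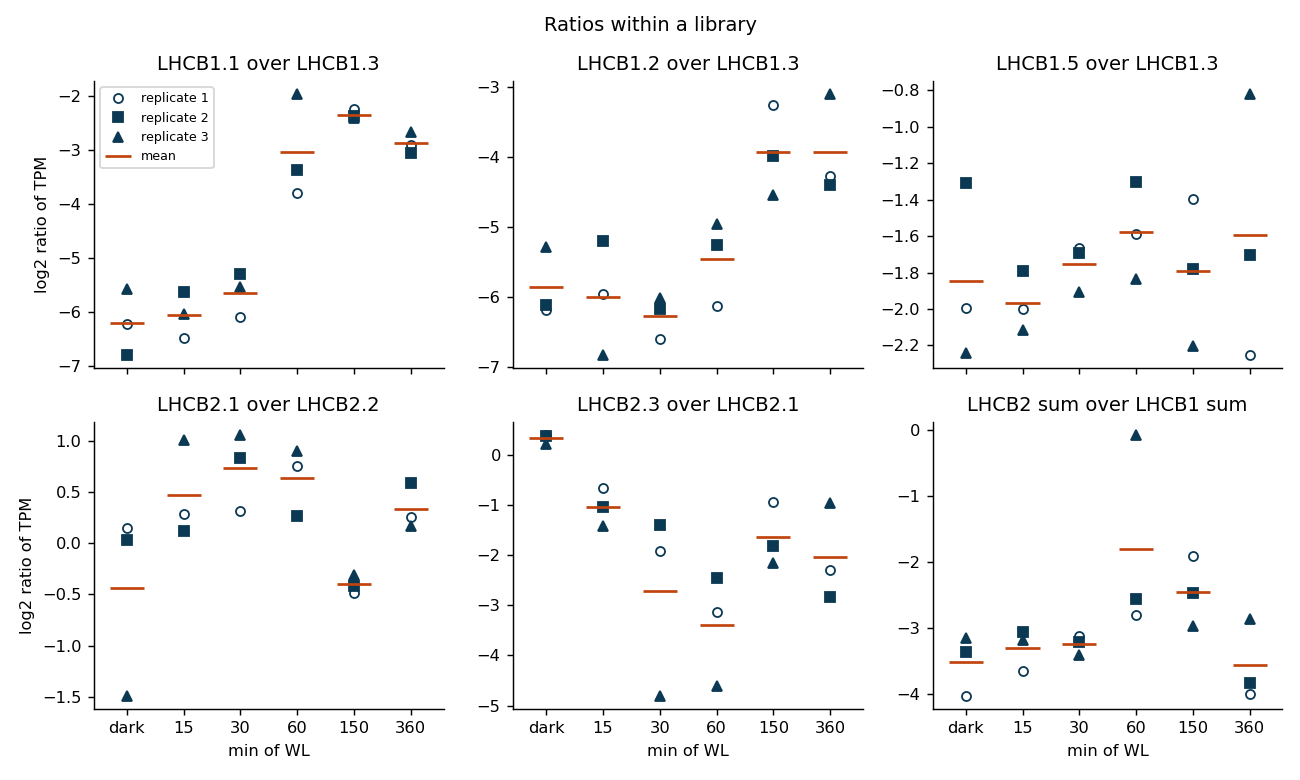
Log2 ratio of TPM within each library against min of WL for 5 pairs of copies and for the LHCB2 sum over the LHCB1 sum; symbols are replicates and the line is the mean. The ratio of LHCB1.1 to LHCB1.3 is higher in all libraries of 60 to 360 min than in dark, and that of LHCB2.3 to LHCB2.1 is lower in all light libraries.

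Most members had a single transcript in the tables. LHCB1.3 had 2, and the second took on average 17.5% of the gene's TPM in dark (0% to 52.5%) and 59.1% at 360 min (0% to 91.5%), ranges that overlapped. The main transcript of LHCB2.1 held 85.7% in dark (68.6% to 100%) and 96.1% at 360 min (88.2% to 100%), ranges that also overlapped. The split within LHCB1.3 was thus not reproducible between replicates, and only gene sums were tested.

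Sequence before the start codon was searched for letters that factors of light, clock and chloroplast gene control are known to bind. The window was the 300 bases before the start codon of each gene and of 27443 genes of the annotation, on both strands. It can hold transcribed bases, as in LHCB1.3, whose annotated transcript starts at chr1:10477885 and start codon at chr1:10478071. The G-box CACGTG, bound by PIF and HY5 proteins, was in 1 of the 8 genes (6.00% of all genes) and the I-box GATAAG in 3 (15.5%). CCAATC, a core bound by GLK factors, was in 5 (13.9%). The letters AAAAATCT and AACAATCT, bound by the clock protein CCA1, were in 3 (7.88%) and 1 (2.86%), and the evening element AAAATATCT was in 0 (2.2%). Windows of 30 bases are shown for the genes whose levels diverged most, with the motif in capitals and each sequence written in the direction of its gene. No motif printed overlapped another.
LHCB1.1, CCA1 letters, chr1:10476029-10476058, minus strand: aacgataaaacAAAAATCTtaaaatccaat
LHCB1.3, CCA1 letters, chr1:10477887-10477916, plus strand: taaaccccaaaAAAAATCTatgactagcca
LHCB1.3, CCA1 letters further upstream, chr1:10477869-10477898, plus strand: gtaagcaaacaAACAATCTaaaccccaaaa
LHCB2.1, GLK core, chr2:1824522-1824551, minus strand: ccacagccactaCCAATCttctattaggac
LHCB2.2, GLK core, chr2:1800508-1800537, minus strand: ccacaaccattaCCAATCtcctcataggac
LHCB2.3, G-box, chr3:10255806-10255835, plus strand: acatatcttctaCACGTGaatctagtttgt
The printed letters lie 155 bases before the start codon in LHCB1.1, 173 and 191 in LHCB1.3, 208 in LHCB2.1, 196 in LHCB2.2 and 184 in LHCB2.3. CCAATC also lay 277 bases before the start codon in LHCB1.3, 144 in LHCB1.5, 153 in LHCB2.1 and 150 in LHCB2.3, windows that are not printed. AAAAATCT also lay 229 and 201 bases before the start codon in LHCB1.4, likewise not printed. The I-box, not printed either, lay 126 bases before the start codon in LHCB1.3, 140 in LHCB1.4 and, on the other strand, 45 in LHCB2.1. In these 300 bases LHCB1.1 shared 75.5% of aligned bases with LHCB1.2 but 46.9% with LHCB1.3, and LHCB2.1 shared 77.4% with LHCB2.2 but 56.4% with LHCB2.3. A match is a description of the sequence only.

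The rest of the antenna was measured alongside. Of 13 other antenna genes, 8 were higher at 360 min and 0 lower, with a median log2 fold change of 2.60 (all genes: -0.03, with 3.47% higher and 0.812% lower). LHCA1 (4.01 ± 0.44, adjusted p = 2.0e-06) and LHCA4 (3.73 ± 0.42, adjusted p = 3.0e-06), which harvest light for photosystem I, and LHCB3 (3.84 ± 0.50, adjusted p = 1.7e-05), the third component of LHCII trimers, had the largest changes. All 3 had also passed at 60 min, with 2.64, 2.33 and 2.63, the only ones of the list to do so, where 0.8% of all genes were called higher. Without the third 60 min library these values were 2.11, 2.44 and 2.13, and LHCB3 did not pass (adjusted p = 0.0138). LHCB6 passed in that fit (1.53, adjusted p = 0.00824), so 3 of the 13 were again called higher. The values at 360 min set beside these were 6.64 for LHCB1.1 and 4.1 for LHCB2.1.

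Antenna proteins need chlorophyll, and of 14 genes for pigment synthesis and antenna targeting 4 were higher and 2 lower at 360 min (median 1.36). Among all genes 3.47% were higher and 0.812% lower. PORC rose by 5.29 ± 0.73 (adjusted p = 3.3e-05) and CHLH, a subunit of magnesium chelatase, by 4.17 ± 0.39 (adjusted p = 2.8e-07). PORA, the protochlorophyllide oxidoreductase of etiolated seedlings, fell from 653 ± 262 normalized counts in dark to 24.4 ± 12.9, a log2 change of -4.90 ± 0.66 (adjusted p = 2.9e-05). The other genes that passed were GUN4 and CRD1, both higher, and PORB, which was lower. CAO, which makes chlorophyll b, differed by 1.23 ± 0.72 and did not pass (adjusted p = 0.343).

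Among 5 tested of 6 genes for antenna phosphorylation and chlorophyll breakdown, 1 was higher and 0 lower at 360 min (median 0.61). The shares of all genes were 3.47% higher and 0.812% lower. The gene that passed was STN7, the kinase of LHCII, at 2.49 ± 0.54 (adjusted p = 0.00411). Its call was lost without any 1 of the 3 dark libraries or without the second 360 min library. STN8 and TAP38 had log2 changes of 0.76 and 0.61 and did not pass.

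Of 12 regulators of LHCB, 6 were higher at 60 min (median 2.49), where 0.8% of all genes were higher (median 0.02). Without the third 60 min library 4 were higher (median 1.93), where 118 of 16879 genes were. At 360 min 3 were higher and 0 lower (median 0.53), where 3.47% of all genes were higher and 0.812% lower. HYH and HY5, light-induced bZIP factors, rose by 7.0 ± 0.64 (adjusted p = 2.3e-07) and 3.71 ± 0.60 (adjusted p = 2.3e-04), and GNL, a GATA factor, by 5.01 ± 0.93 (adjusted p = 9.1e-04). CCA1, which binds LHCB1.3 upstream sequence, had 159 ± 24.8 normalized counts in dark, 1074 ± 633 at 60 min and 285 ± 90.6 at 360 min. It had risen by 2.76 ± 0.42 at 60 min (adjusted p = 5.2e-04), and the difference of 0.84 at 360 min did not pass (adjusted p = 0.233). GLK1, an activator of LHCB genes, differed by -1.12 ± 0.76 at 360 min (adjusted p = 0.417), while GLK2 had 249 ± 64.2 in dark and 1576 ± 485 at 60 min, a rise of 2.66 ± 0.42 (adjusted p = 7.5e-04). GLK2 was 1.18 ± 0.41 at 360 min and did not pass (adjusted p = 0.0798). Without the third 60 min library the 60 min rises were 2.88 for CCA1 (adjusted p = 7.2e-04) and 2.45 for GLK2 (adjusted p = 0.00278).

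**Figure D5:**
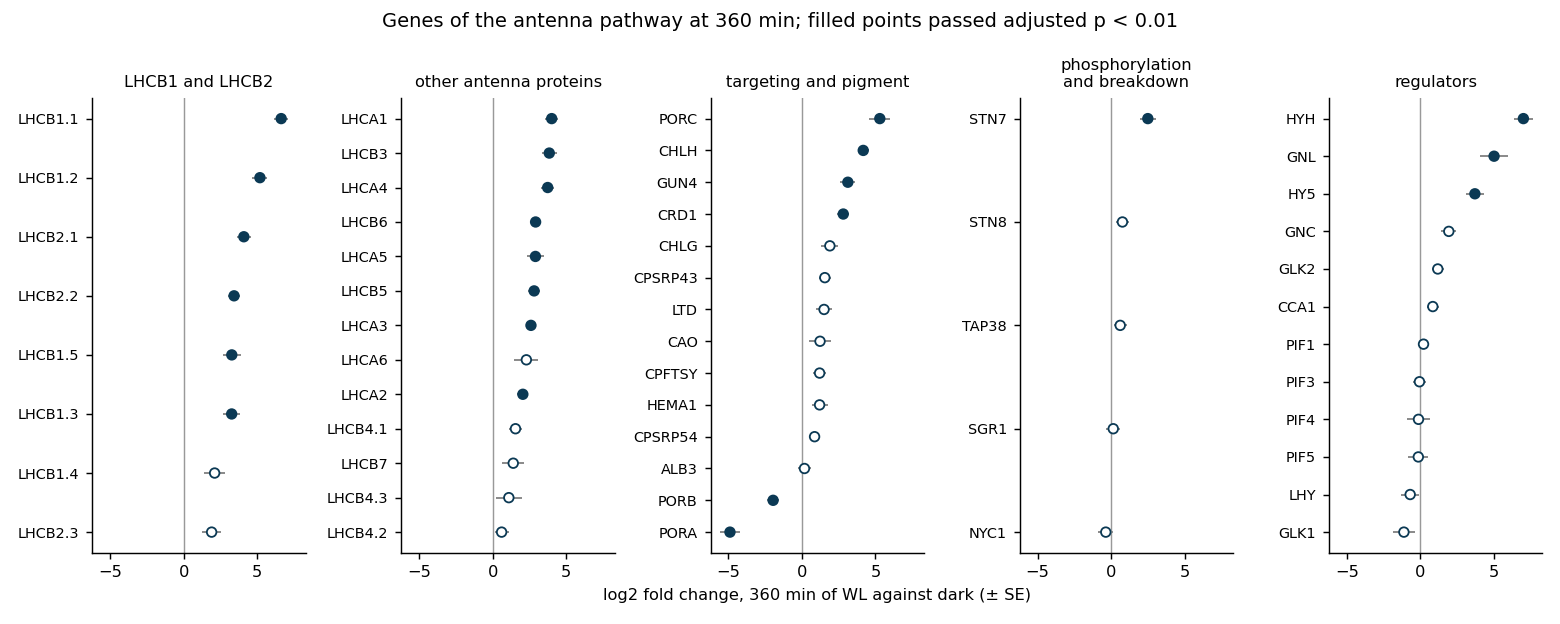
Log2 fold change at 360 min of WL against dark (± SE, edgeR) for the 8 LHCB1 and LHCB2 genes and for 4 lists of other genes of the antenna pathway; filled points passed an adjusted p of 0.01. Of the 8 antenna genes on the left 6 are filled, and PORA and PORB are the only filled points below 0.

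The genes whose profile was most like each family over the 18 libraries were also antenna, photosystem or pigment genes for the most part. For the LHCB1 sum, the highest Pearson correlations of log2 CPM (counts scaled to library size) among 16739 other genes were those of APG1 (0.969), LHCA3 (0.964), PSBO1 (0.963), PSBTN (0.960) and AT1G74070 (0.958). PSBO1 is an extrinsic protein of the oxygen-evolving complex and LHCA3 an antenna protein of photosystem I. For the LHCB2 sum they were LHCA1 (0.994), LHCB3 (0.987), CRD1 (0.984), PSAF (0.981) and CHLH (0.980), where PSAF is a subunit of photosystem I and CRD1 and CHLH act in chlorophyll synthesis. The 2 lists had no gene in common, and the libraries share their groups, so the values describe these 18 libraries.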

How the data were processed

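The 18 libraries of polyA RNA were grouped by the sample labels, with 3 libraries for dark and for each of the 5 durations of WL. The authors assigned single reads of 50 bases with kallisto to the AtRTD2-QUASI transcriptome using words of 31 bases, and deposited for every transcript an estimated count, a decimal number on the scale of reads. The TPM values deposited beside them are relative to the library sum, plastid ribosomal RNA included. The authors also deposited a normalized signal per gene, summed reads scaled by DESeq. There 100% of values correspond to whole reads within 0.01 of a read, and edgeR on the recovered reads called 586 genes higher and 140 lower at 360 min. Its columns name the group of a library but not its replicate. The submitters' processing notes name DESeq 1.36.0 and edgeR 3.26.8. The kallisto options listed in the study's methods include none for strand.

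Gene counts were made from the deposited estimated counts and TPM as in tximport's lengthScaledTPM option, as the study did, and rounded. A gene was kept if, in each group, at most 1 of the 3 libraries had a count of 0; 16747 of 34212 genes were kept, all 8 members among them. Counts were scaled by TMM and fitted over all libraries with edgeR's robust quasi-likelihood method (edgeR 4.0.16, R 4.3.3), without a replicate term. The Benjamini-Hochberg adjustment was made over all genes tested, with a threshold of 0.01. The biological coefficient of variation was 0.540, and its weight beside depth was not tested. Sums over families and over the copies most alike were fitted in place of the single genes. Ratios within a library used TPM and two-sided exact permutation tests (scipy 1.17.1), whose smallest p with 3 against 3 libraries is 0.1. Besides the members, the text names the 3 genes of each pathway list with the largest change at 360 min, PORA, HY5, GLK1, CCA1 and CAO, and the 5 genes most correlated with each family sum (prior count 2). GLK2, GUN4, PORB and LHCB6 were named after their values were seen, and genes that overlap a member for their position. Positions and sequences come from the RefSeq annotation of TAIR10.1.

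The alternatives for counts and scaling were summed estimated counts, recovered reads, DESeq2's size factors, and library totals with and without the 23S genes. Those for filter and test were edgeR's own filter, no filter, DESeq2 1.42.0, limma-voom (limma 3.58.1), and a negative binomial regression on group (MASS 7.3.60.0.1). A replicate block, the 2 groups compared only, and leaving out each library were the others. The fits were tested on simulated data. The members, lists, tests and alternatives were chosen with earlier results of these data known.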

Additional observations from a re-analysis of the deposited data

Results flagged for a closer look

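Between 2 neighbouring time points, the change against dark of 3 genes differed by edgeR's quasi-likelihood test at an adjusted p below 0.01. From 30 to 60 min, LHCB1.1 differed by 3.25 ± 0.41 on the log2 scale (SE, adjusted p = 4.8e-04), and all 3 libraries of 60 min were above those of 30 min. LHCB2.2 differed by 2.39 ± 0.40 over the same step (adjusted p = 0.00916), also with all 3 libraries of 60 min above those of 30 min, as for 7.02% of all genes. From 60 to 150 min, LHCB1.2 differed by 3.62 ± 0.47 and LHCB1.1 by 2.99 ± 0.40 (adjusted p = 5.9e-04 for each), and all 3 libraries of 150 min were above those of 60 min for both genes, as for 7.26% of all genes. The third 60 min library is part of all 4 steps, and without it they were 3.41, 2.23, 3.27 and 2.83 (adjusted p = 2.9e-04, 0.0210, 0.00314 and 0.00438).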

How the results depend on the processing

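Summed estimated counts, recovered reads and edgeR's own filter left every count of called members, family sum and list count above on its side of the threshold. With library totals that include plastid 23S RNA in place of TMM, the median of all genes moved by 0.15, 0.27, 0.04, -0.49 and -0.61 at 15 to 360 min, and 0, 1 and 0 members were called at 60, 150 and 360 min, 0 at each step and 2 over the time course. Of all 16747 genes, this scaling called 1, 4 and 0 at these 3 times, 0 at each step and 20 over the time course. The LHCB1 sum was then 1.95 at 150 min and 2.34 at 360 min, and the LHCB2 sum 2.59, 3.26 and 2.77 at 60, 150 and 360 min, none of them passing, and every list count was 0. Totals without 23S left 1 member for the step from 30 to 60 min, where 3 of all genes were higher, and 0 genes of the phosphorylation list. With only the 2 groups compared in the fit, 1 member was called at 60 min, where the LHCB2 sum was 2.36 (adjusted p = 0.0769), 0 at either step, 1 pigment gene lower and 0 phosphorylation genes. Of all genes, such fits called 25 higher at 60 min, 1 from 30 to 60 min and 0 from 60 to 150 min. DESeq2 and limma-voom each called 8 members at 150 min, and DESeq2 5 from 60 to 150 min. Over all genes, DESeq2 called 616 and limma-voom 462 higher at 150 min, where the main fit called 368. From 60 to 150 min DESeq2 called 84 genes higher and the main fit 20. With DESeq2's size factors LHCB2.1 passed from 30 to 60 min (2.44), and with no filter LHCB2.1 passed there (2.36), LHCB2.2 from 60 to 150 min (2.1) and LHCB1.5 at 150 min (2.46). Leaving out each library in turn gave 2.15 to 2.98 for the LHCB2 sum at 60 min, 2.60 to 3.33 for the LHCB1 sum at 150 min, 0 to 3 members from 30 to 60 min, 1 to 2 pigment genes lower and 0 to 1 phosphorylation genes higher. On leaving out each library, the difference from dark in the log2 ratio of LHCB2 to LHCB1 ranged from -0.04 to 0.40 at 15 min and from -0.40 to 0.17 at 360 min, and was 0.13 at 360 min from estimated counts. The causes were not tested.

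Replicate numbers did not pair the libraries: deviations from the group means correlated between -0.41 and 0.45 for the same number (median -0.05), and 2 of 18 libraries were nearest to their own number. With a replicate block, 1 member passed from 30 to 60 min, where 6 of all genes were higher. With it 0 genes of the phosphorylation list passed, and LHCB1.5 passed at 150 min (2.69). A blocked permutation of the ratio of LHCB2 to LHCB1 cannot go below 0.25.

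LHCB1.4 and LHCB2.3 passed at no single time in the quasi-likelihood test, while DESeq2 and limma-voom called both at 150 min. There DESeq2 called 616 and limma-voom 462 of all genes higher, and the quasi-likelihood test 368. How far depth limits these calls was not tested.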
